A study of Mus musculus with 2 samples.

Results

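The glucocorticoid axis of subcutaneous fat stroma was followed through 8 genes, chosen by symbol out of 32246 symbols in the count tables: the receptor gene Nr3c1, the enzyme gene Hsd11b1 and the 6 target genes Zbtb16, Fkbp5, Tsc22d3, Per1, Klf9 and Sgk1. All 8 were measured in both libraries. They were picked with results of these data known, so their differences between the libraries are given as a description, and no test was run on them. The data are 2 droplet single-cell RNA-seq libraries of CD45-negative stromal vascular cells, sorted from the subcutaneous white fat of mice: 1 library labelled Paqr4 transgenic and 1 labelled WT. Both are pools from mice (the series text gives 3 mice without saying whether per genotype), and age, strain background, the promoter that drives the transgene and any hormone treatment are given by none of the sources used here. Each genotype has 1 library, so no difference below has a replicate check, and all intervals are 95% intervals for counting error only.

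Glucocorticoid hormone enters cells freely and binds the receptor encoded by Nr3c1, which sits in the cytoplasm with Hsp90 chaperones until the hormone arrives, then moves to the nucleus and switches genes on and off. The enzyme 11-beta-hydroxysteroid dehydrogenase type 1, encoded by Hsd11b1, regenerates active corticosterone (in mice) from its inert 11-keto form inside the cell, and in fat it is known for raising the local hormone level. Textbook induced genes include Fkbp5, a co-chaperone that lowers hormone binding by the receptor in a short feedback loop; Tsc22d3 (GILZ), an anti-inflammatory leucine zipper protein; Zbtb16 (PLZF) and Klf9, a pair of zinc finger transcription factors; Per1, a repressor of the circadian clock; and Sgk1, a kinase that regulates ion transport and cell survival.

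The receptor binds DNA as a dimer, at 2 copies of the hexamer AGAACA facing each other across 3 bases. The palindrome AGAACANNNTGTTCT, searched on both strands, lay in 3 of 32851 RefSeq promoter windows of the GRCm38.p6 assembly (0.00913%), each window running from 250 bases before to 50 bases after an annotated start. Of the 8 genes, 6 were in that table, with 14 windows. One of the 3 windows belonged to Sgk1. The single hexamer AGAACA or its complement TGTTCT, which every palindrome also holds, was in 4 of the 14 windows, against 19.0% of all windows. These 4 were 3 of the 6 Sgk1 windows and 1 of the 3 Tsc22d3 windows, and the windows of Fkbp5, Per1, Klf9 and Hsd11b1 held no such letters. A match is a description of the sequence, and nothing in these data measured binding. The Sgk1 window with the palindrome, chr10:21993640-21993939 on the plus strand, and the Tsc22d3 window with a single hexamer, chrX:140600473-140600772 on the minus strand, are shown because they carry the sequence matches among the targets described below; capitals mark the matched hexamers and, in Sgk1, the palindrome that begins at position -189 from the start.
Sgk1: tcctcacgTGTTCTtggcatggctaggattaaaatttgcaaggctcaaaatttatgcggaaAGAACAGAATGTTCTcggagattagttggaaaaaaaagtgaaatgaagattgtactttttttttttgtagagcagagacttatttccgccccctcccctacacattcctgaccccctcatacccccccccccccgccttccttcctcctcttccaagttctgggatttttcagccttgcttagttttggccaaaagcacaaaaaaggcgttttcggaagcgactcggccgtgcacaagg
Tsc22d3: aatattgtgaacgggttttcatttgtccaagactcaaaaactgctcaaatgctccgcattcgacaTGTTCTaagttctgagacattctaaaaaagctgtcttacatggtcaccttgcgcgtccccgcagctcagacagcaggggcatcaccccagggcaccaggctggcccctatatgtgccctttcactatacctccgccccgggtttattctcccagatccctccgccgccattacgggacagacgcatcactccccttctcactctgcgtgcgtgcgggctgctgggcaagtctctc

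Counted as cells were barcodes with no fewer than 1000 unique molecular identifiers (UMIs) and 500 genes and no more than 10% mitochondrial UMIs. The transgenic library gave 1521 cells and the WT library 1328, from totals of 43084906 and 44145257 UMIs. Mesenchymal progenitors, the fibroblast-like cells that can form adipocytes, made up 1359 transgenic and 1128 WT cells in 6 clusters, with median depths of 19327 and 22599.5 UMIs. Endothelial cells, which line vessels, numbered 85 transgenic and 101 WT cells at 7645 and 9541 UMIs. Both classes were named from marker lists, so the marker levels describe them without checking the names. The 8 endothelial markers summed to 10266 UMIs per 1000000 UMIs of the class (UPM) in transgenic and 12089 in WT endothelial cells. In progenitors they summed to 14.5 and 10.3. Paqr4 itself was at 9.50 UPM (8.36 to 10.8) in transgenic and 7.87 (6.82 to 9.03) in WT progenitors. The libraries also differ in sex: Xist, the X-silencing RNA of female cells, was at 0.152 UPM in transgenic and 959 in WT progenitors, and the Y-linked Ddx3y at 110 and 0.935. Genotype and sex therefore cannot be told apart in any difference below.

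In progenitors the receptor gene was at nearly the same level in both libraries, Hsd11b1 was higher in the transgenic library, and each of the 6 targets was lower there. Nr3c1 (chromosome 18) had 243 UPM in transgenic and 250 in WT progenitors, a log2 ratio of transgenic over WT of -0.04 with an interval of -0.09 to 0.01. Hsd11b1 (chr1:193221634-193264075) had 121 UPM in transgenic and 68.1 in WT progenitors, a log2 ratio of 0.83 (0.75 to 0.92); 2.70% of the genes described in the next paragraph were higher by 1.5-fold or more. In the transgenic library Hsd11b1 RNA was therefore 1.78-fold higher, while Nr3c1 RNA did not differ beyond its counting interval at this scaling. Other settings moved both ratios. Nr3c1 came to -0.12 with median-of-ratios scaling, and Hsd11b1 to 0.57, under 1.5-fold, with equal weights for the clusters. Hsd11b1 overlaps 3 annotated genes, Gm38118 on the same strand and 4930570N18Rik and Lamb3 on the other strand. Lamb3, a laminin gene, was at 0.950 UPM in transgenic and 0.857 in WT progenitors.

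Of the 6 targets, 2 were lower by 1.5-fold or more in transgenic progenitors, against 1.74% of the 8745 genes at 10 UPM or more in a library. All 6 were lower by some amount, against 33.2% of all genes, whose median log2 ratio was 0.09. The targets had been chosen with these ratios known, so these shares place them without testing them. Zbtb16 (chr9:48654297-48836222) stood furthest down, with 288 UPM in transgenic and 931 in WT progenitors, a log2 ratio of -1.69 (-1.73 to -1.65); 0.354% of genes had a lower one. Per1 (chr11:69095217-69109960) had 19.1 UPM in transgenic and 42.7 in WT progenitors, a log2 ratio of -1.16 (-1.32 to -1.01). These transcription factor and clock genes were thus 3.23-fold and 2.24-fold higher in WT.

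The other targets differed by less than 1.5-fold, with counting intervals below 0 throughout. Among the feedback and anti-inflammatory genes, Fkbp5 (chr17:28399094-28517527) had 120 UPM in transgenic and 147 in WT progenitors, a log2 ratio of -0.30. Tsc22d3 (chrX:140539528-140600659), the X-linked one of the targets, had 33.5 UPM in transgenic and 45.4 in WT progenitors, a log2 ratio of -0.44. Both lay lower in the transgenic library, by 1.23-fold and 1.36-fold. Klf9 (chr19:23141226-23168134) had 472 UPM in transgenic and 588 in WT progenitors, a log2 ratio of -0.32, and Sgk1 (chr10:21882184-21999903) had 39.2 in transgenic and 50.03 in WT progenitors, a log2 ratio of -0.35. Equal weights for the 6 clusters turned Fkbp5 to 0.04; its direction in cluster 7, described below, was the opposite one.

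**Figure D1:**
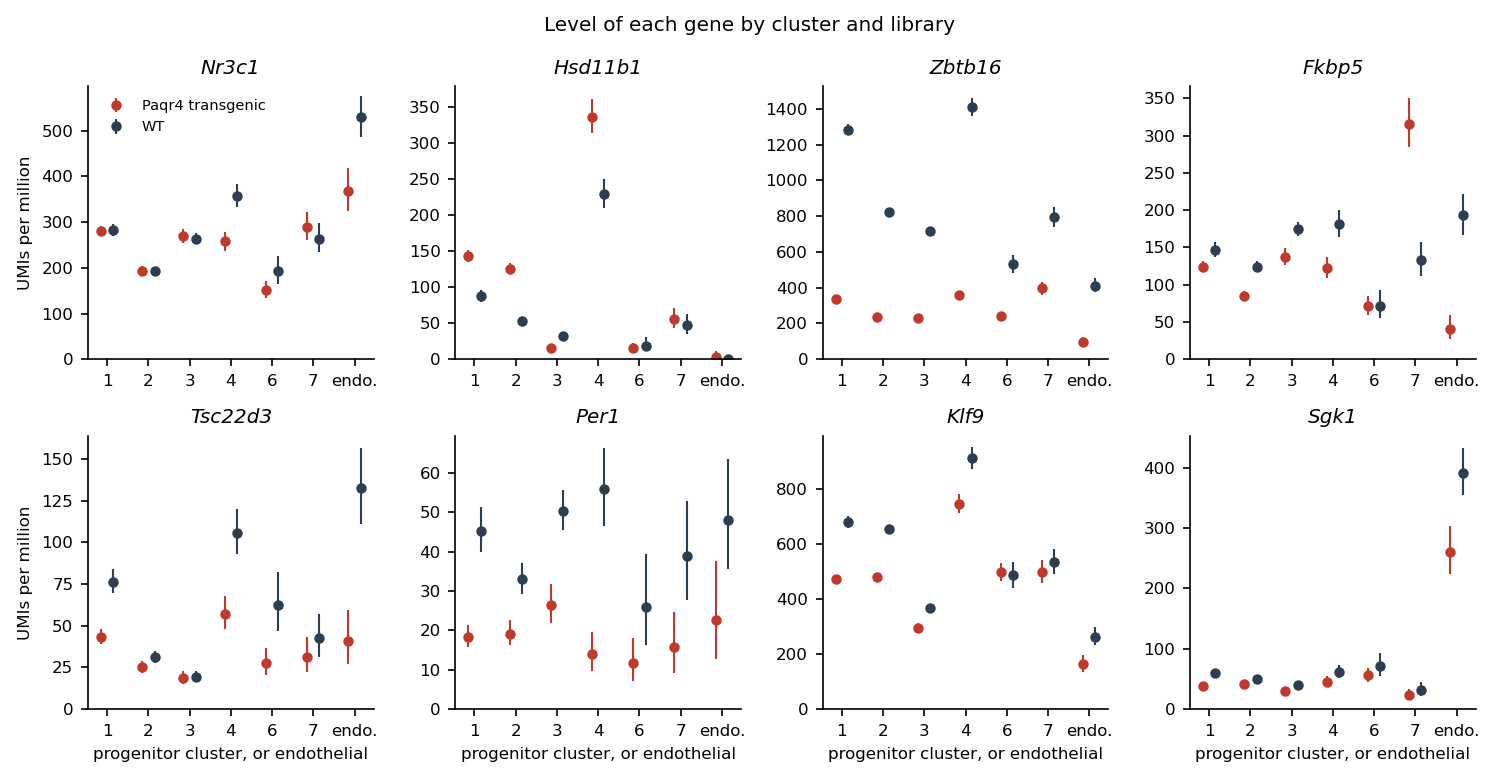
Level of each gene in UPM (linear axes starting at 0) in the 6 progenitor clusters and in endothelial cells (endo.); transgenic points are red and stand left of the dark WT points, and bars are 95% Poisson intervals. Zbtb16 lies lower in the transgenic library in all 7 groups, Hsd11b1 peaks in cluster 4 in both libraries and is nearly undetected in endothelial cells, and Sgk1 is highest in endothelial cells.

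Depth and free RNA moved with the libraries too. Transgenic progenitors were shallower, and the nuclear RNAs Malat1 and Neat1 were higher in them, at 19434 UPM against 15845 in WT for Malat1 and 508 against 400 for Neat1; the part of this in the target ratios was not tested. In barcodes of 50 or fewer UMIs, which hold mainly free RNA, Zbtb16 had 130 UPM in the transgenic and 229 in the WT library, and Hsd11b1 70.3 and 39.7. Those 2 genes stood in the same direction there as in the progenitors. Nr3c1, at 115.2 UPM in the transgenic and 83.7 in the WT library, and Fkbp5, at 52.6 and 46.0, stood higher in the transgenic library there and lower in its progenitors. The other 4 targets were lower in the transgenic library there: Tsc22d3 at 27.8 against 38.5 UPM in WT, Per1 at 30.8 against 43.9, Klf9 at 191 against 213 and Sgk1 at 50.5 against 57.2. The counting intervals of Fkbp5 and of these 4 targets overlapped between the libraries in such barcodes, so no order is read for them there.

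The shares of cells with a UMI, after every cell had been thinned to 5000 UMIs, followed the levels for most genes. Zbtb16 was seen in 64.7% of 1312 transgenic and 92.2% of 1103 WT progenitors at that depth (62.1 to 67.3 and 90.5 to 93.7, Clopper-Pearson), and without thinning in 89.3% and 97.8%. Per1 was seen in 9.53% of transgenic and 18.6% of WT progenitors thinned, and in 28.3% and 53.8% unthinned. The thinned shares of both genes were thus lower in the transgenic library, with intervals that did not overlap. Hsd11b1 was seen in 32.7% of transgenic and 21.4% of WT progenitors thinned, and in 54.7% and 44.1% unthinned. In endothelial cells, used as the class that lacks it and shallower than progenitors by the median depths above, 1 of 85 transgenic and 0 of 101 WT cells had a UMI, and thinned 0 of 69 and 0 of 82. The 0 of 101 allows a share of up to 3.59% of cells with a UMI (Clopper-Pearson). Nr3c1 was seen in 64.8% of transgenic and 65.2% of WT progenitors. Sgk1 was seen in 17.1% of transgenic and 17.0% of WT progenitors at equal depth, which goes against its lower UPM, so no order is read for its share.

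**Figure D2:**
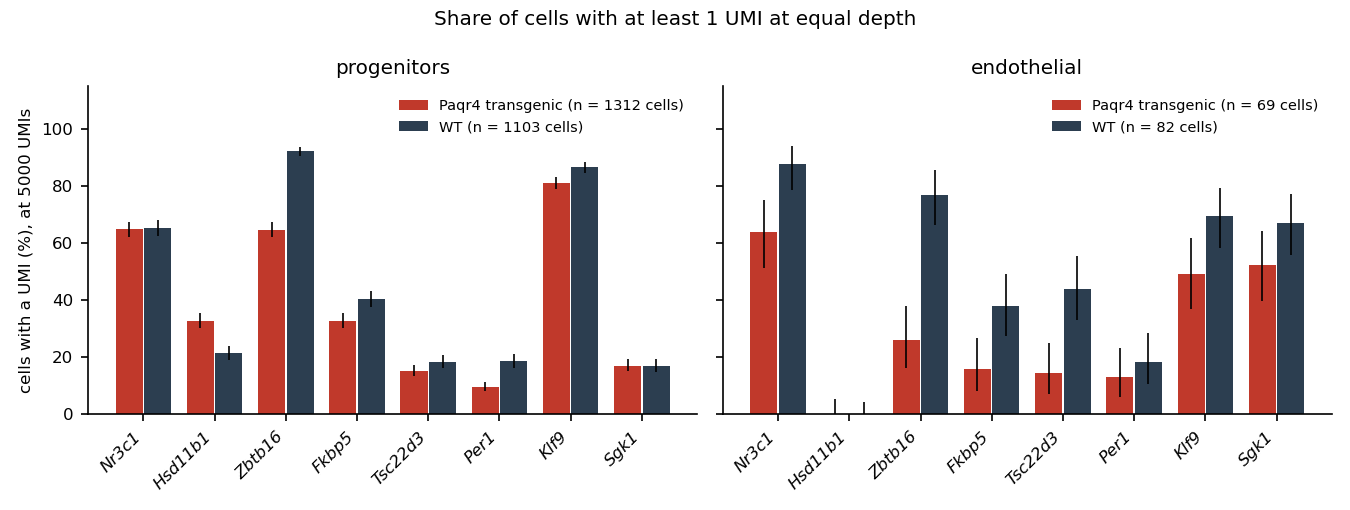
Share of cells with at least 1 UMI of each gene after thinning to 5000 UMIs, in progenitors (left) and endothelial cells (right); red bars are transgenic and dark bars WT, with 95% Clopper-Pearson intervals. The transgenic bar is far below the WT bar for Zbtb16 in both panels, and the Nr3c1 bars are level in progenitors.

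The lower level of Zbtb16 was not confined to cells without a UMI. Thinned transgenic progenitors had a median of 1 Zbtb16 UMI and a 90th percentile of 4, and WT progenitors a median of 4 and a 90th percentile of 10. At 5 or more UMIs stood 6.48% of transgenic and 44.3% of WT progenitors. The number of targets seen per thinned progenitor averaged 2.21 of 6 in the transgenic and 2.73 in the WT library, with at least 4 seen in 8.69% and 20.4% of cells. Within a library the targets hardly varied together from cell to cell: over the 15 pairs of targets the median Pearson r of thinned log counts was 0.00018 over transgenic and 0.05 over WT progenitors, and the highest was 0.09 and 0.18. In counts this sparse such values are no finding.

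**Figure D3:**
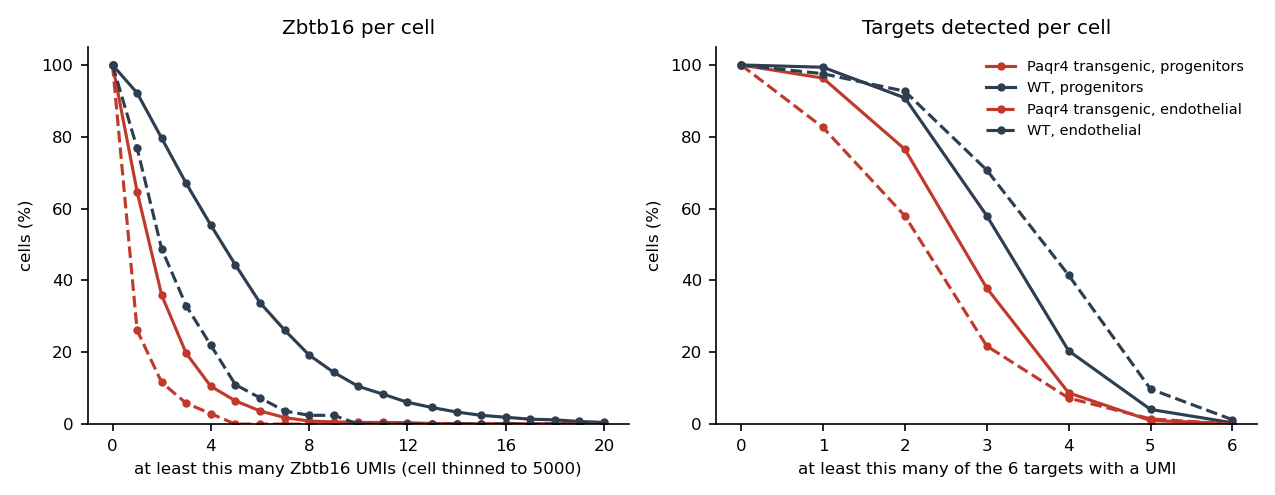
Left, share of cells (%) with at least the given number of Zbtb16 UMIs; right, share with at least the given number of the 6 targets detected, all cells thinned to 5000 UMIs. Red lines are transgenic and dark lines WT, solid for progenitors and dashed for endothelial cells; both red lines run below the dark line of the same class at 1 to 5 Zbtb16 UMIs.

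The progenitor clusters were built without the 8 genes or the pathway lists, and are called by number with their leading genes. Cluster 1 (led by Ccn2, Mgp and Hmcn2; 491 transgenic and 278 WT cells) and cluster 2 (led by Adamts4, Tfpi2 and Il6; 365 and 352 cells) were the largest. Cluster 3 was Dpp4-like, the early progenitors marked by Pi16 and Sema3e (197 and 285 cells), and cluster 4 Icam1-like, the committed preadipocytes marked here by Cxcl14, G0s2 and Fgf10 (125 and 110 cells). Cluster 6 was led by Nkain3, Itgbl1 and Tgfbi (104 and 42 cells), and cluster 7 by C7, Prlr and Grem1 (77 and 61 cells). Clusters 1 and 7 both met the rule for F3-like cells, an anti-adipogenic progenitor class, and because that name covered unlike leading genes it is not used further.

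Hsd11b1 had the steepest gradient across these clusters. In the transgenic library it had 336 UPM in cluster 4, 143 in cluster 1, 125 in cluster 2, 55.7 in cluster 7, 15.6 in cluster 3 and 15.2 in cluster 6. In WT it had 229 UPM in cluster 4, 87.2 in cluster 1, 52.4 in cluster 2, 47.5 in cluster 7, 31.6 in cluster 3 and 18.9 in cluster 6. The order was the same in both libraries, led by the committed preadipocytes; the neighbours whose intervals overlapped were clusters 3 and 6 in the transgenic library, and each of clusters 2, 7, 3 and 6 with the next in WT. In endothelial cells there were 2 Hsd11b1 UMIs in the transgenic library and 0 in WT, both at or under the floor of 3 UMIs, so no fold is given.

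The difference of Hsd11b1 between the libraries was not the same in every cluster. It was higher in transgenic cells in cluster 2, with a log2 ratio of 1.26 (1.09 to 1.42), and in cluster 1, with 0.71 (0.56 to 0.87), where 4.32% and 3.99% of all genes were higher by 1.5-fold or more. It was lower in transgenic cells in cluster 3, with -1.02 (-1.42 to -0.63), where 1.44% of genes had a lower ratio. The cluster 1 ratio lay between 0.11 (resolution 1.0) and 1.19 (cells at 5000 or more UMIs) under the other settings, and came under 1.5-fold at 0.46 when all variable genes were used. In cluster 4 the log2 ratio was 0.55 (0.39 to 0.72), but 0.10 with doublets kept and -1.18 with separate clusterings of the libraries, so its direction turned. The intervals of clusters 6 and 7, at -0.31 and 0.23, crossed 0. The thinned share of cells moved alike: 38.6% of transgenic and 17.8% of WT cells in cluster 2, and 5.15% of transgenic and 12.8% of WT cells in cluster 3. The cluster 3 value rests on 70 transgenic UMIs, of which 34.3% lay in 5 cells, and was -1.30 without the 5 top cells of each library and -0.46 with separate clusterings of the libraries.

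Zbtb16 was lower in transgenic cells of every cluster. Its transgenic levels were 338, 237, 232, 359, 241 and 396 UPM in clusters 1, 2, 3, 4, 6 and 7, and its WT levels in the same order were 1283, 824, 716, 1409, 531 and 794 UPM. No transgenic cluster reached the lowest WT cluster. Its log2 ratio ran from -1.97 in cluster 4 to -1.003 in cluster 7. The order of the clusters changed with it: cluster 7 was highest in the transgenic library, with an interval that overlapped that of cluster 4, and at rank 4 in WT, and the spread between the highest and lowest class, endothelial cells included, was 4.15-fold in transgenic and 3.42-fold in WT cells.

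Per1 was lower in transgenic cells of every cluster as well, by log2 ratios of -1.30 in cluster 1, -0.79 in cluster 2, -0.93 in cluster 3, -1.99 in cluster 4, -1.15 in cluster 6 and -1.31 in cluster 7. The levels ran from 11.7 to 26.5 UPM across the transgenic clusters and from 26.0 to 55.8 UPM across the WT clusters, and the intervals of all neighbours in either order overlapped. Cluster 4, the lowest but one in the transgenic library at 14.0 UPM and the highest in WT at 55.8, rests on 33 and 126 UMIs.

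Fkbp5 went the other way in cluster 7. There it had 316 UPM in transgenic and 133 in WT cells, a log2 ratio of 1.25 (0.96 to 1.54), where 15.2% of all genes were higher by 1.5-fold or more, and its thinned share of cells was 64.4% in transgenic and 36.7% in WT cells. In clusters 1, 2, 3 and 4 it was lower in transgenic cells, with ratios of -0.25, -0.54, -0.34 and -0.57, and in cluster 6 the ratio was -0.01. In the transgenic library cluster 7 stood above every other class by more than the counting intervals, whereas in WT its interval overlapped those of clusters 1 and 2. The 5 cells with the most Fkbp5 held 28.4% of the transgenic and 35.04% of the WT UMIs of that cluster, and the ratio without them was 1.37. Other clusterings gave lower values: 0.87 with all variable genes, 0.61 at resolution 1.0 and 0.59 with doublets kept, the lowest of the settings that kept this cluster.

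The remaining targets followed the clusters in their own orders. Tsc22d3 was highest in cluster 4 among progenitors in both libraries, at 57.3 UPM in transgenic and 106 in WT cells, and lowest in cluster 3, at 18.5 and 19.2 UPM, where its ratio of -0.05 had an interval across 0. Klf9 was also highest in cluster 4, at 747 UPM in transgenic and 913 in WT cells, and lowest in cluster 3, at 297 and 367. Sgk1 ran from 22.6 UPM in cluster 7 to 56.2 UPM in cluster 6 in the transgenic library, with intervals that did not overlap, and from 32.0 to 72.1 UPM across the WT clusters. Nr3c1 was highest in endothelial cells in both libraries; it had 193 UPM in cluster 2 in both libraries, while the Icam1-like cluster 4 had 258 UPM in transgenic and 358 in WT cells, a log2 ratio of -0.47 (-0.63 to -0.32).

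By cluster, all 6 targets were lower in transgenic cells of clusters 1, 2, 3 and 4, and 5 of 6 in clusters 6 and 7. Above 0 stood Klf9 (0.03) in cluster 6 and Fkbp5 (1.25) in cluster 7. Counting intervals lay wholly below 0 for 6, 6, 5 and 6 targets in clusters 1, 2, 3 and 4. In cluster 6 they did so for 3 targets and in cluster 7 for 2. Past 1.5-fold were 4 targets in cluster 1 (2.80% of all genes), 2 in cluster 2 (3.10%), 2 in cluster 3 (3.99%), 3 in cluster 4 (9.08%), 3 in cluster 6 (12.2%) and 2 in cluster 7 (13.2%). Lower by any amount were 40.7%, 38.1%, 37.2%, 50.5%, 45.6% and 46.3% of all genes in the same 6 clusters. Some small ratios turned direction with the settings: Fkbp5 came to 0.02 in cluster 1 (resolution 0.3) and 0.11 in cluster 4 (doublets kept). Klf9 came to 0.04 (doublets kept) and 0.02 (separate clusterings) in cluster 4. Tsc22d3 in cluster 3 came to 0.70 thinned and 0.36 with separate clusterings, and stayed below 0 in 7 of 11 settings. Cluster 6 had 42 WT cells, so its values are levels with little depth behind them.

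**Figure D4:**
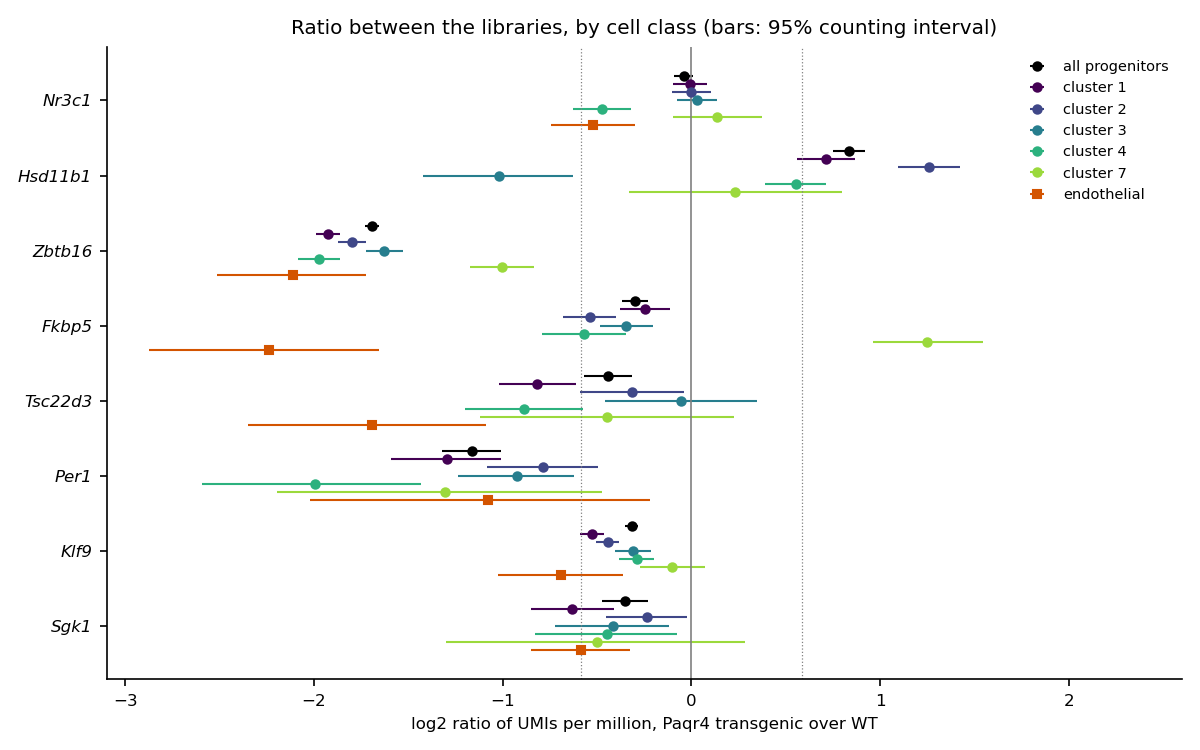
Log2 ratio of UPM, Paqr4 transgenic over WT, for each gene in all progenitors (black), in 5 progenitor clusters and in endothelial cells (orange squares), with 95% counting intervals; dotted lines mark 1.5-fold, cluster 6 with 42 WT cells is left out, and Hsd11b1 has no endothelial value. Zbtb16 and Per1 lie left of 0 throughout, and Fkbp5 in cluster 7 and Hsd11b1 in cluster 3 stand apart from the other clusters.

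In endothelial cells all 6 targets and the receptor were lower in the transgenic library. Zbtb16 had 95.5 UPM in transgenic and 412 in WT endothelial cells, a log2 ratio of -2.11 (-2.51 to -1.72). Fkbp5 had 40.9 in transgenic and 193 in WT cells, a log2 ratio of -2.24 (-2.88 to -1.65). Tsc22d3 had 40.9 in transgenic and 132 in WT cells, a log2 ratio of -1.69 (-2.35 to -1.09). These 3 genes were 4.31-fold, 4.72-fold and 3.23-fold higher in WT. Fkbp5 and Tsc22d3 each had 27 transgenic UMIs, of which 40.7% and 55.6% lay in their 5 top cells. In WT they had 197 and 135 UMIs, with 29.9% and 21.5% in such cells. Per1 had 22.7 UPM in transgenic and 48.1 in WT cells, a ratio of -1.08 (-2.02 to -0.22) that rests on 15 and 49 UMIs. Klf9 had 164 UPM in transgenic and 264 in WT cells, a ratio of -0.69, and Sgk1, which is higher in endothelium than in any progenitor cluster, had 261 and 391, a ratio of -0.59 at 1.50-fold. Nr3c1 had 369 UPM in transgenic and 529 in WT cells, a log2 ratio of -0.52 (-0.75 to -0.30).

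Past 1.5-fold lower were 6 of 6 targets, against 17.9% of the 9466 genes measured in endothelial cells, and lower by any amount were 51.7% of genes. Keeping cells at 5000 or more UMIs left 4 of 6 past that mark, as Klf9 and Sgk1 came to -0.58 and -0.52. At equal depth 26.1% of 69 transgenic and 76.8% of 82 WT endothelial cells had a Zbtb16 UMI, and the mean number of targets seen per cell was 1.71 and 3.13. For Fkbp5 those shares were 15.9% and 37.8%, and for Tsc22d3 14.5% and 43.9%. All 3 shares were lower in transgenic cells.

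The endothelial cells were of more than one kind, in different proportions in the libraries. They pool blood endothelial cells with a lymphatic cluster of 6 transgenic and 6 WT cells. At resolution 1.0 the blood endothelial cells split into a cluster led by Cd36, Cldn5 and Gpihbp1, with 66 transgenic and 37 WT cells, and a cluster led by Plvap, Emcn and Kdr, with 13 transgenic and 58 WT cells. This split was examined after the data had been seen. Nr3c1 was at 342 UPM in transgenic and 352 in WT cells of the Cd36-led cluster, a log2 ratio of -0.04 (-0.37 to 0.29), and at 490.4 and 613 in the Plvap-led cluster, a ratio of -0.32 (-0.79 to 0.11). The receptor gene did not differ beyond its counting interval in either cluster. The Plvap-led value rests on 49 transgenic UMIs, and its interval also holds the -0.52 of all endothelial cells.

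Zbtb16 and Fkbp5 stayed lower in transgenic cells of both clusters. Zbtb16 had 103 UPM in transgenic and 318 in WT cells of the Cd36-led cluster (-1.62, interval -2.11 to -1.15), and 60.04 and 515 in the Plvap-led one (-3.10), where 6 transgenic UMIs were seen. Fkbp5 had 37.8 and 158 in the Cd36-led cluster (-2.06, interval -2.88 to -1.30), and 50.04 and 220.2 in the Plvap-led one (-2.14) on 5 transgenic UMIs. The intervals of both genes lay below 0 in both clusters. Tsc22d3 had 23.8 UPM in transgenic and 54.2 in WT cells of the Cd36-led cluster (-1.18), and 110.1 and 197 in the Plvap-led one (-0.84, interval -1.88 to 0.06). Within the Cd36-led cluster Per1, Klf9 and Sgk1 gave -1.13, -0.60 and -0.31, and within the other Klf9 and Sgk1 gave 0.02 and -0.27, with Per1 on 2 transgenic and 22 WT UMIs. Past 1.5-fold lower were 5 targets in the Cd36-led cluster (20.2% of all genes) and 4 in the Plvap-led one (21.0%).

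Other genes moved with the same cells. The 6 adipocyte markers summed to 206 UPM in transgenic (1 marker at 0) and 49.1 in WT endothelial cells (3 at 0), and the 8 pericyte markers to 256 (1 at 0) and 129 (2 at 0). The endothelial markers did not all move alike. Kdr, the main VEGF receptor, was at 1034 UPM in transgenic and 1625 in WT cells, and Pecam1 at 1379 and 1666. Cdh5 went the other way, at 1093 and 928. Of 20 dissociation and immediate early genes 13 were above 0 in endothelial cells; 7 were higher in the transgenic library by 1.5-fold or more (16.6% of all genes) and 0 lower, with a median log2 ratio of 0.43. Atf3, a stress-induced transcription factor, had 573 UPM in transgenic and 248 in WT cells (1.21), the antiproliferative Btg2 842 and 479 (0.81), and Fosb, an AP-1 subunit, 485 and 298 (0.70). Of the nuclear RNAs, Neat1 had 817 UPM in transgenic and 388 in WT cells (1.08), Kcnq1ot1 237 and 111 (1.09), and Malat1 19219 and 21039 (-0.13). Atf3, Btg2 and Fosb were chosen after their values were seen, and the part of all of these in the target ratios was not tested. Dcn, the gene of the matrix proteoglycan decorin, stood at 0.248% of its progenitor level in transgenic and 1.32% in WT endothelial cells. Pdgfra stood at 0.876% and 0.341%, Col1a1 at 0.534% and 1.65%, and Zbtb16 at 33.1% and 44.2%. The part of progenitor RNA in the endothelial values was not tested.

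The rest of the pathway was followed through 8 lists. Of 28 other glucocorticoid-induced genes 23 were measured in progenitors, with 17 below 0 and 6 above it, and a median log2 ratio of -0.32 against 0.09 for all genes. Of these, 3 were 1.5-fold or more lower and 1 was higher by as much, where 1.74% and 2.70% of all genes were. Ddit4, an inhibitor of mTORC1, had 6.91 UPM in transgenic and 12.0 in WT progenitors (log2 ratio -0.80), and the metal-binding Mt2 had 589 and 986 (-0.74). Mt1, its neighbour gene, had 1704 and 2661 (-0.64). The gene higher by 1.5-fold or more, Crispld2, a secreted lipopolysaccharide-binding protein, had 247 UPM in transgenic and 141 in WT progenitors (0.81). In endothelial cells 21 were measured, and by direction the list did not lean the same way, with 9 below 0 and 12 above it. The median was 0.05 against -0.02 for all genes. By 1.5-fold or more 5 were lower and 2 higher, where 17.9% and 16.6% of all genes were. Mt1 had 177 UPM in transgenic and 69.7 in WT endothelial cells (1.35), while Mt2 had 16.7 and 61.8 (-1.89).

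Of 15 inflammatory genes that the hormone is known to repress, 10 were measured in progenitors. Their log2 ratios had a median of -0.35 against 0.09 for all genes, with 8 below 0 and 2 above it, Mmp3 at 0.35 and Ptgs2 at 0.03, both picked because they were the exceptions. Cxcl2, a neutrophil chemokine, had 56.5 UPM in transgenic and 93.5 in WT progenitors (log2 ratio -0.73) and was the one past 1.5-fold. Cxcl1 had 877 and 1205 (-0.46), Vcam1, an adhesion molecule, 83.2 and 113 (-0.44), and Cxcl10 161 and 206 (-0.36). In endothelial cells 8 were measured, with 4 on each side of 0 and a median of -0.57 against -0.02 for all genes. There 4 were 1.5-fold or more lower and 3 were higher by as much, where 17.9% and 16.6% of all genes were.

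Most of the receptor's partners were within 1.5-fold in progenitors, as were 8357 of all 8745 genes. Of all genes 5846 were above 0, and their median log2 ratio was 0.09. All 10 chaperone genes were within 1.5-fold in progenitors, with 9 above 0 and a median of 0.17; Hsp90aa1, an Hsp90 that holds the receptor ready for hormone, had 1093 UPM in transgenic and 771 in WT progenitors (log2 ratio 0.50), Hsp90ab1 1064 and 873 (0.29), and the co-chaperones Stip1 and Hspa4 both 0.25. The 13 co-regulators were all within 1.5-fold, with a median of 0.11, among them Ncoa3 at 0.28, Nrip1 at 0.26 and Smarca4 at 0.19. Of 10 genes for steroid access and related receptors 5 were measured, with a median of -0.14. Esr1, an oestrogen receptor, had 74.1 UPM in transgenic and 118 in WT progenitors (-0.67) and was past 1.5-fold. H6pd, which supplies the cofactor that Hsd11b1 uses, had 41.3 UPM in transgenic and 35.5 in WT progenitors (0.22), and Nr3c2, the mineralocorticoid receptor, 84.7 and 93.2 (-0.14).

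In endothelial cells more of these genes were past 1.5-fold, as were more genes of any kind. Of all 9466 genes there, 1568 were higher and 1692 lower by as much, and 6206 lay within 1.5-fold. In progenitors 236 were higher and 152 lower, of 8745. Of the 10 chaperone genes 1 was higher there, Hspa4 at 0.64, and 3 were lower, Ppid at -0.79, Stip1 at -0.76 and Bag1 at -0.73, with a list median of -0.25 against -0.02 for all genes. Of the 5 steroid access genes measured 3 were higher and 1 lower, with a median of 0.59. Abcb1b, an efflux pump gene, had 155 UPM in transgenic and 53.0 in WT endothelial cells (1.55), and Nr3c2 had 400.4 and 267 (0.59). Ppid, Bag1 and Abcb1b were named once their values were known. H6pd had 9 transgenic and 2 WT UMIs. All 13 co-regulators lay within 1.5-fold, with a median of -0.05.

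Per1 belongs to the clock, and the other clock genes were set beside it. Of 17 other clock genes 11 were measured in progenitors, 9 above 0, with a median of 0.15. Of all 8745 genes, 5846 were above 0, with a median of 0.09, and 152 were 1.5-fold or more lower. Nr1d2, a clock repressor, had 12.8 UPM in transgenic and 19.3 in WT progenitors (log2 ratio -0.59) and was past 1.5-fold like Per1. Cry1 had 50.2 and 36.2 (0.47), Bhlhe41 10.7 and 8.14 (0.40) and Bmal1, the clock activator, 142 and 114 (0.32). The collection times of the mice are not given in the sources used here, so clock phase and genotype cannot be told apart. The 20 dissociation and immediate early genes had a median of -0.04, with 1 past 1.5-fold: Myc at 141 UPM in transgenic and 211 in WT progenitors (-0.59). Egr2 stood at -0.43, and the heat shock genes Hspa1a and Hspa1b at 0.47 and 0.48. The 4 nuclear RNAs had a median of 0.27, with Neat1 at 0.35, Malat1 at 0.29, Meg3 at 0.25 and Kcnq1ot1 at -0.05.

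**Figure D5:**
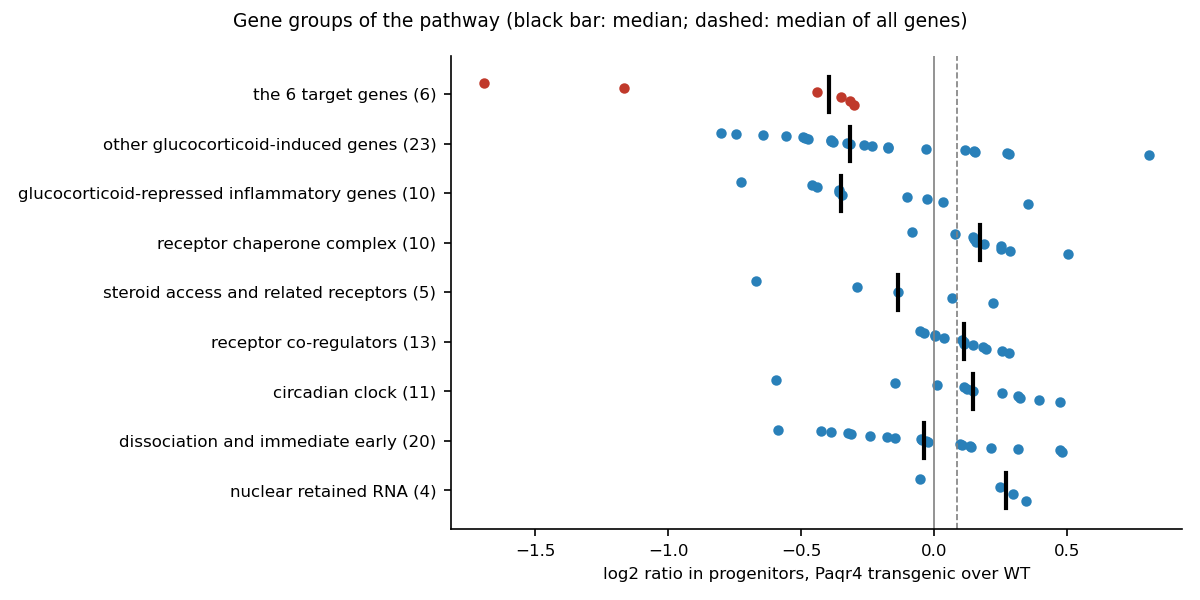
Log2 ratio in progenitors, Paqr4 transgenic over WT, of each measured gene in the 6 targets (red) and in 8 lists (blue), with the number of genes in brackets; black bars are medians and the dashed line is the median of all 8745 genes. Zbtb16 and Per1 are the 2 leftmost red points, and the induced and repressed lists both have medians below 0.

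Across 13 sums of cells, 1 for each cluster and library with 50 or more cells, some genes had patterns close to a member's. The measure was Pearson's r of log2(UPM + 10) among 5368 genes, given as a description: the sums share 2 libraries, and the closest of so many genes is bound to be high. Hsd11b1 was closest to G0s2, an inhibitor of fat breakdown, at 0.96, then Dok6 and the nucleotide receptor P2ry1, both also 0.96, and ran most opposite to Crispld1 (-0.91), Arid5b (-0.89) and Pdgfd (-0.89). Klf9 was closest to Lpl, lipoprotein lipase (0.96), Cyp1b1 (0.96) and Colec12 (0.95). These patterns follow the progenitor clusters, with cluster 4 at the top of Hsd11b1 and Klf9 alike, and the r between those 2 genes was 0.84. Zbtb16 was closest to Laptm4a (0.91), Dpm3 (0.90) and Ptn (0.85) and most opposite to Neat1 (-0.86), Adarb1 (-0.83) and Ampd3 (-0.82). Per1 was closest to Tomm7 (0.93), Ctrb1 (0.88) and Cox7c (0.81); Ctrb1 is a pancreatic enzyme gene that led a cluster of 30 cells, 5 transgenic and 25 WT.

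Sgk1 was closest to Slc9a3r2 (0.98), Caskin2 (0.97) and BC028528 (0.97), and both endothelial sums stand far above all the others for it. Nr3c1 was closest to Cul4a (0.96), Fam76b (0.93) and Sdha (0.91), Tsc22d3 to Scp2 (0.92), Tmco1 (0.92) and Rnaset2a (0.88), and Fkbp5 to Fam168b (0.89), Fam120a (0.78) and Tbc1d2b (0.77). Between the targets themselves r ran from -0.61 for Klf9 with Sgk1 to 0.70 for Zbtb16 with Klf9, with 0.68 for Zbtb16 with Per1 and 0.61 for Zbtb16 with Fkbp5. Nr3c1 and Zbtb16 had 0.08, and Hsd11b1 and Zbtb16 had 0.42. The targets shared a direction between the libraries in most classes, but their orders across cell classes differed from gene to gene.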

How the data were processed

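Single-cell 3′ RNA-seq was measured in 2 libraries. The deposited matrices hold unnormalised UMI counts per gene for every barcode; per the submitters' processing notes Cell Ranger 7.0.0 and build mm10 were used, while per the file headers the matrix came from Cell Ranger 4. Whether introns and strand were counted is not stated in the sources used here. Features sharing a symbol were summed. Cells were kept at 1000 UMIs, 500 genes and at most 10% mitochondrial UMIs; Scrublet removed 4 transgenic and 1 WT doublets. No cell barcode was shared between the libraries.

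Counts were scaled to 10000 per cell and log-transformed; 2000 variable genes without the 8 genes and the 8 lists, 30 principal components and 15 neighbours were clustered by Leiden at resolution 0.5 (scanpy 1.11.5, leidenalg 0.10.2, Python 3.11.15, numpy 2.4.6, scipy 1.17.1). Clusters were named from markers of 18 types: a marker counted at 20 UPM and 25% of its highest level, 50% and at least 3 markers were needed, and a subclass needed 1.5-fold over the other progenitors; a leading gene needed a UMI in 10% of the cluster's cells. These thresholds were set once the clusters were known, and the cells that each name covers were rebuilt here. A mixed cluster with haemoglobin and mesothelial genes (41 transgenic and 44 WT cells) was left out.

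UPM is the gene's UMIs per 1000000 UMIs of the class; its Poisson, the shares' Clopper-Pearson and the ratios' conditional binomial intervals are exact, at 95%, and leave out variation between cells and mice. UMIs at 3 or fewer in both libraries give no ratio, and genes under 10 UPM in both libraries were left out of lists and backgrounds. Named genes are the 8 members, up to 4 list genes with the largest ratio in progenitors, and the 3 most alike genes per member (for Zbtb16 and Hsd11b1 also the 3 most opposite), without predicted, mitochondrial, ribosomal protein and X- or Y-linked genes; marker, sex and handling genes given beside results are extra. Some list genes picked by this rule are not reported here. Bmal1 was matched by its older symbol. Coordinates are GRCm38 (GENCODE M21 annotation). The members, lists and rules were chosen with earlier results of these data known. The ratio script was tested on simulated counts.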

Additional observations from a re-analysis of the deposited data

Results flagged for a closer look

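For Hsd11b1, 2 progenitor clusters moved in opposite directions past 1.5-fold: the log2 ratio of transgenic over WT was 1.26 in cluster 2 and -1.02 in the Dpp4-like cluster 3. For Fkbp5 the ratio was 1.25 in cluster 7, led by C7, Prlr and Grem1, and -2.24 in endothelial cells. With 1 library per genotype, neither difference between classes was tested.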

How the results depend on the processing

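With 1 library per genotype no library could be left out. No paired analysis was possible because each genotype has 1 sample. The count of targets 1.5-fold or more lower in progenitors was 2 under every setting but equal weights for the clusters (3); counted by direction alone it was 6. Under the planned settings no ratio past 1.5-fold changed sign; some under that mark did, Hsd11b1 in cluster 4 (0.55) coming to -1.18 with separate clusterings; clusters 4 and 7 had no matching cluster in some clusterings. In progenitors, median-of-ratios scaling gave log2 ratios of -0.12 for Nr3c1, -1.77 for Zbtb16, -0.38 for Fkbp5 and -0.40 for Klf9. It shifted all progenitor ratios by 0.08. Equal weights gave -0.11 for Nr3c1, 0.57 for Hsd11b1, -1.62 for Zbtb16, 0.042 for Fkbp5, -0.73 for Tsc22d3 and -0.28 for Klf9. Averaging over cells gave 0.69 for Hsd11b1 and -1.65 for Zbtb16, thinning 0.72 for Hsd11b1 and -0.16 for Sgk1, and resolution 0.3 gave 1.12 for Hsd11b1; the causes were not tested. In endothelial cells Zbtb16 was -1.72 with doublets kept and -2.56 without the 5 top cells, and Tsc22d3 -2.51 without its 5. Settings chosen after seeing the data took the endothelial clusters of resolution 1.0 one at a time. The Cd36-led one gave -0.043 for Nr3c1, -1.62 for Zbtb16 and -0.31 for Sgk1, and the Plvap-led one -3.10 for Zbtb16, -0.84 for Tsc22d3, 0.016 for Klf9 and -0.27 for Sgk1. The blood endothelial cluster alone moved no ratio beyond its interval, and left 4 targets past 1.5-fold. Thinning changed the share differences to -27.5 points for Zbtb16, -9.06 for Per1 and -5.41 for Klf9. Equal weights moved the list medians to -0.13 (repressed), 0.27 (chaperones), -0.27 (steroid access), 0.034 (co-regulators), 0.022 (dissociation) and 0.23 (nuclear RNA); steroid access was -0.29 at 50 UPM and 0.069 with no filter. With no filter 9.46% of genes were 1.5-fold or more lower and 10.9% higher. Counting intervals are wide in classes of few cells.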
